A study of Mus musculus with 20 samples.

Results

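Cytosolic ribosomal protein genes were selected by name from the autosomal protein-coding genes of mouse assembly mm10: Rpl or Rps with digits and an optional a, x or l, Rplp0 to Rplp2, and Rpsa. Pseudogene forms and the Rps6k kinase genes were left out. The rule found 77 genes of 20665, 47 with symbols of the large ribosomal subunit and 30 of the small one. It used no measured value. It took in the paralogs Rpl3l, Rpl10l, Rpl39l and Rps27l and the gene Rpl32l. Rpl10, Rpl36a, Rpl39 and Rps4x, the 4 genes on X, stayed outside, as did Rps3a1 and Fau, whose names the rule does not match.

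The chromatin came from Comma-Dβ cells, a line of mouse mammary epithelial cells, at passage 28, and all 20 samples came from this 1 line. Chromatin immunoprecipitation with sequencing gave 4 samples each for HEB, H3K4me3, H3K27ac and H3K27me3 and 4 of input chromatin, all from cells grown in DMEM/F12 with 0.125 IU/mL insulin, 5 ng/mL EGF, 10 mM HEPES and 2% FBS. HEB is the E protein transcription factor encoded by Tcf12, which binds E-box motifs. The data analysed here were 1 peak list per antibody, so no value below has a spread between replicates or a test, read depth is unknown, and widths and folds over control are the authors' own.

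Of 10 mammary epithelial markers 9, all but Trp63, carried both H3K4me3 and H3K27ac, against 1 of 5 immune markers (Cd68) and 0 of 4 each for endothelial, adipocyte, skeletal muscle and neuronal markers. H3K27me3 was also within 1 kb of an end of 5 of the 10 epithelial markers, 3 of 5 immune, 1 of 4 endothelial, 2 of 4 adipocyte and 4 of 4 each of the muscle and neuronal markers.

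The ribosome is built from these proteins and ribosomal RNA, and a growing cell makes them in very large amounts from genes that are active in every tissue. Their messages begin with a run of pyrimidines, the terminal oligopyrimidine tract, through which mTOR signalling controls their translation. H3K4me3 marks promoters of active genes, H3K27ac marks active promoters and enhancers, and H3K27me3 is written by Polycomb proteins on repressed genes.

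Promoter sequences from RefSeq (GRCm38.p6, 250 bases before to 50 after the first listed start) were at hand for 57 of the 77 genes. Those of the other genes were not used here. The lines that follow give 60 bases before the start and 20 from it, 5′ to 3′ on the strand of the gene. The first set has the 4 longest runs of pyrimidines across the start, in Rpl7a, Rpl27a, Rpl35 and Rpl15, and Rps10, Rps6, Rpl38 and Rplp2 as examples of shorter ones, with the run in capitals.
Rpl7a, chr2:26910747-26910826, plus strand: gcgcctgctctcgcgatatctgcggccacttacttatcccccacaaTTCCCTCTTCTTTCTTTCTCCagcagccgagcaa
Rpl27a, chr7:109519135-109519214, plus strand: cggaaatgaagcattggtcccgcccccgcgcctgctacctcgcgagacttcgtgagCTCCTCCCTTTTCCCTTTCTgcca
Rpl35, chr2:39005112-39005191, minus strand: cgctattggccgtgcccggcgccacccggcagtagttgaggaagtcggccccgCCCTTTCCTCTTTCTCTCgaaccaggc
Rpl15, chr14:18270967-18271046, minus strand: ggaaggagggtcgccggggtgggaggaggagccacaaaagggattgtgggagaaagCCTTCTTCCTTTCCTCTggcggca
Rps10, chr17:27635225-27635304, minus strand: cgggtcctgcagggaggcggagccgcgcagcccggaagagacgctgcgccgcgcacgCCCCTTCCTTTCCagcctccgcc
Rps6, chr4:86857348-86857427, minus strand: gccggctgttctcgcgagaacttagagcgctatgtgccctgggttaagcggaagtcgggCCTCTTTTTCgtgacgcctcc
Rpl38, chr11:114668520-114668599, plus strand: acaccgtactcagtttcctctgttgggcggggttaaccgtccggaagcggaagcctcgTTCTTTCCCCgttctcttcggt
Rplp2, chr7:141447591-141447670, plus strand: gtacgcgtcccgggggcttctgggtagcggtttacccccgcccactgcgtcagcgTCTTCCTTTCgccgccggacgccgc

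The start base was a pyrimidine in 27 of the 57 promoters (47.4%), against 23.2% of all 16457 RefSeq promoters. It was C in 20 (35.1%, against 13.8%). The run of pyrimidines that held the start base was 5 bases or longer in 18 (31.6%). This compares with 8.64% of all promoters and 8.98% of the 9027 promoters whose start lay inside an H3K4me3 peak. In Rpl7a the run held 21 bases, in Rpl27a 20, in Rpl35 18 and in Rpl15 17. RefSeq starts can differ from the true start by some bases, which changes whether the listed base is a pyrimidine. At 6 genes the listed start lay 500 bp or more inside the outer gene end, from 0.762 kb at Rpl38 to 2.6 kb at Rpl18 and 4.71 kb at Rpl19.

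The next set is shown because it pairs 5 promoters that hold the ETS core, in capitals, with Rpl5, the gene of highest H3K4me3 fold, in which no such core was found.
Rpl11, chr4:136053374-136053453, minus strand: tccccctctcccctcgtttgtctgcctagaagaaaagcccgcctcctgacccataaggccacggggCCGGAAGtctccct
Rpl26, chr11:68901506-68901585, plus strand: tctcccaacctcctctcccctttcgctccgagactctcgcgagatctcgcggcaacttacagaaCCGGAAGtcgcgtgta
Rpl37, chr15:5116553-5116632, plus strand: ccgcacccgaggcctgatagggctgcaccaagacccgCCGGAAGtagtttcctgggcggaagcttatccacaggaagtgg
Rpl6, chr5:121204441-121204520, plus strand: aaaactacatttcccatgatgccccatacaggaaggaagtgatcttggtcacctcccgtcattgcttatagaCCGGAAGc
Rps27l, chr9:66946026-66946105, plus strand: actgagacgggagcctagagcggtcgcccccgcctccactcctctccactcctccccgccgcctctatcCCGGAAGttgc
Rpl5, chr5:107900468-107900547, plus strand: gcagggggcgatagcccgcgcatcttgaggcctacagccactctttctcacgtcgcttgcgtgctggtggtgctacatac

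The ETS core CCGGAAG, read on both strands over the 300 bases, was in 23 of 57 promoters (40.4%), against 12.3% of all promoters and 20% of those with H3K4me3 at the start. TGACG, the shared part of cAMP response elements, was in 29 (50.9%), against 24.2% and 33.8%. The YY1 core AAGATGG was in 8 (14.0%), against 6.42% and 7.39%. These 3 motifs were more frequent in ribosomal protein promoters than in both backgrounds.

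Other elements were not. The GC box GGGCGG was in 32 promoters (56.1%), against 47.3% of all and 70.0% of those with H3K4me3. The TATA box TATAAA was in 4 (7.02%), against 13.5% and 6.11%. CCAAT was in 17 (29.8%), against 38.9% and 39.2%. The NRF1 core GCGCATGC was in 2 (3.51%), against 3.66% and 5.9%. GC content had a median of 57.0%, beside 56.7% over all promoters and 62.0% over those with H3K4me3 at the start. Each match is a description of letters in this window.

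For HEB the relevant element is the E-box. CANNTG was in 29 of the 57 promoters (50.9%), against 68.4% of all and 60.7% of those with H3K4me3, and its form CAGCTG, counted in both, was in 4 (7.02%), against 15.2% and 13.8%. The last set shows Rpl19 and Rpl3l with E-boxes in capitals. It also shows Rpl10l and Rpl39l, paralogs without any mark, in which neither an E-box nor the ETS core fell in these 80 bases. In the longer window used for the counts, Rpl10l did hold an E-box of the form CAGCTG. Rpl39l held the ETS core there and no E-box.
Rpl19, chr11:98026650-98026729, plus strand: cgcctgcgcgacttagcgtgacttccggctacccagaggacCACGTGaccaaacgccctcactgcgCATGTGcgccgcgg
Rpl3l, chr17:24727766-24727845, plus strand: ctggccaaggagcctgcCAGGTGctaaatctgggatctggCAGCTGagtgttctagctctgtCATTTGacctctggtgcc
Rpl10l, chr12:66284382-66284461, minus strand: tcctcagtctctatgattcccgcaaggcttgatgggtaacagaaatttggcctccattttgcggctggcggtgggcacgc
Rpl39l, chr16:10170168-10170247, plus strand: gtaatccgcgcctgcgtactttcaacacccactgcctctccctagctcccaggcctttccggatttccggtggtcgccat

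H3K4me3 and H3K27ac were present at nearly every ribosomal protein gene. An H3K4me3 peak lay within 1 kb of a gene end at 74 of 77 genes (96.1%), against 57.3% of all autosomal protein-coding genes. An H3K27ac peak lay there at the same number, 74 (96.1%), against 55.2%. H3K27me3 was found at 4 genes (5.19%), against 31.2%. By combination, 70 genes had both active marks without H3K27me3, 4 had all 3 marks and 3 had none, and over all genes these shares were 45.4%, 4.88% and 17.9%. The other lists of constitutive genes were marked about as often. H3K4me3 was at 93.6% of mitochondrial ribosomal protein genes, 92.6% of translation factors, 92.3% of proteasome subunits and 97.5% of ribosome biogenesis genes. H3K27ac was at 89.7% to 97.5% of these lists and H3K27me3 at 2.5% to 8.82%. All 30 small-subunit genes carried both active marks and none had H3K27me3.

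The 3 genes without a mark were Rpl32l, Rpl10l, an intronless copy of Rpl10 expressed in the testis, and Rpl39l, a testis-enriched copy of Rpl39. Without the 4 paralogs and Rpl32l, a choice made after seeing that Rpl32l had no peak, all 72 remaining genes had both active marks.

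The fold of the H3K4me3 peak was high. Over the 74 genes the widest peak had a median fold of 37.8 over control, with quartiles of 29.5 and 44.9 and a range of 10.2 to 75.3, against a median of 20.6 over all genes with a peak. The widest peak had a fold of 30 or more at 52 of the 77 genes (67.5%), against 12.1% of all genes. Narrower peaks of Rpl36 and Rpl23a, with folds of 63.1 and 34.3, were not counted here or in the ranks below. Medians were 33.7 for mitochondrial ribosomal proteins, 33.9 for proteasome subunits, 31.0 for ribosome biogenesis genes and 28.9 for translation factors, so these lists lay between all genes and the ribosomal protein genes. Large-subunit genes had a median of 40.6 and small-subunit genes 34.6, with quartiles that overlapped, 30.7 to 47.1 against 27.6 to 39.1.

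Several of the H3K4me3 peaks of highest fold in the whole list belonged to these genes. With the widest peak of each gene ranked by fold among 17162 peaks, 4 of the first 10 and 13 of the first 100 were at ribosomal protein genes; the first 100 are 0.583% of the list, and the 13 are 17.8% of the 73 distinct peaks at these genes. Rpl5, which with Rpl11 and 5S rRNA forms a particle that binds Mdm2, had the highest fold of all, 75.3, over 2679 bp. Rpl26, which also promotes the translation of p53, had rank 3 with a fold of 71.6. Rpl9, named after its value was seen, had rank 5 with 67.8.

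Rpl27 had rank 10 with a fold of 63.7, and Rpl11 rank 12 with 63.2. These 5 genes all code for proteins of the large subunit. In the small subunit the highest fold was 56.7 at Rps26, at rank 34. The H3K27ac list had no such peaks, since none of its first 100 peaks by fold lay at a ribosomal protein gene.

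**Figure D1:**
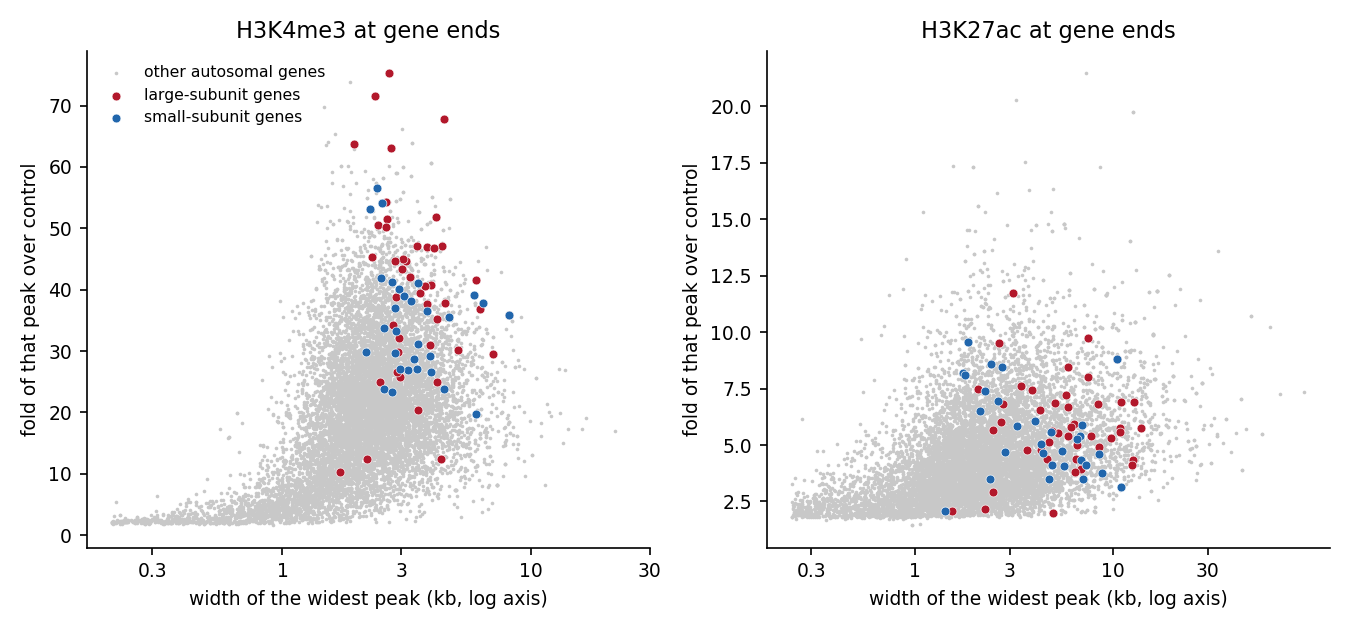
Fold over control of the widest peak at the gene ends against its width, for H3K4me3 (left) and H3K27ac (right), with 1 point per autosomal gene. Large-subunit genes are red, small-subunit genes blue and other genes grey. In H3K4me3 the ribosomal protein genes tend to lie high in the cloud, a part they share with other genes. Their median fold is 37.8, with a range of 10.2 to 75.3 at Rpl5. In H3K27ac they tend to lie to the right, with a median width of 5174 bp.

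H3K27ac differed in width more than in fold. The median width of the widest H3K27ac peak was 5174 bp, with quartiles of 2910 and 7238 bp and a range of 1409 to 13748 bp, against 2290 bp over all genes. The comparison lists lay at 1610 bp for mitochondrial ribosomal proteins, 1843 bp for proteasome subunits, 2353 bp for ribosome biogenesis and 2740 bp for translation factors. A total of 10 genes (13.0%) had a peak of 10 kb or more, against 2.59% of all genes. The median fold was 5.57, against 4.21 over all genes. The widest peak had a fold of 5 or more at 47 genes (61.0%), against 19.9%. Narrower peaks at the gene ends were not counted, such as the one at Rpl11 with a fold of 10.9. The comparison lists ranged from 4.64 to 5.25 in median fold.

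H3K4me3 peaks were also wide, by less. Their median width was 3164 bp, with quartiles of 2730 and 4050 bp, against 2268 bp over all genes, 2194 bp for mitochondrial ribosomal proteins and 2900 bp for translation factors. A width of 5 kb or more was found at 9 genes (11.7%), against 2.31%.

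**Figure D2:**
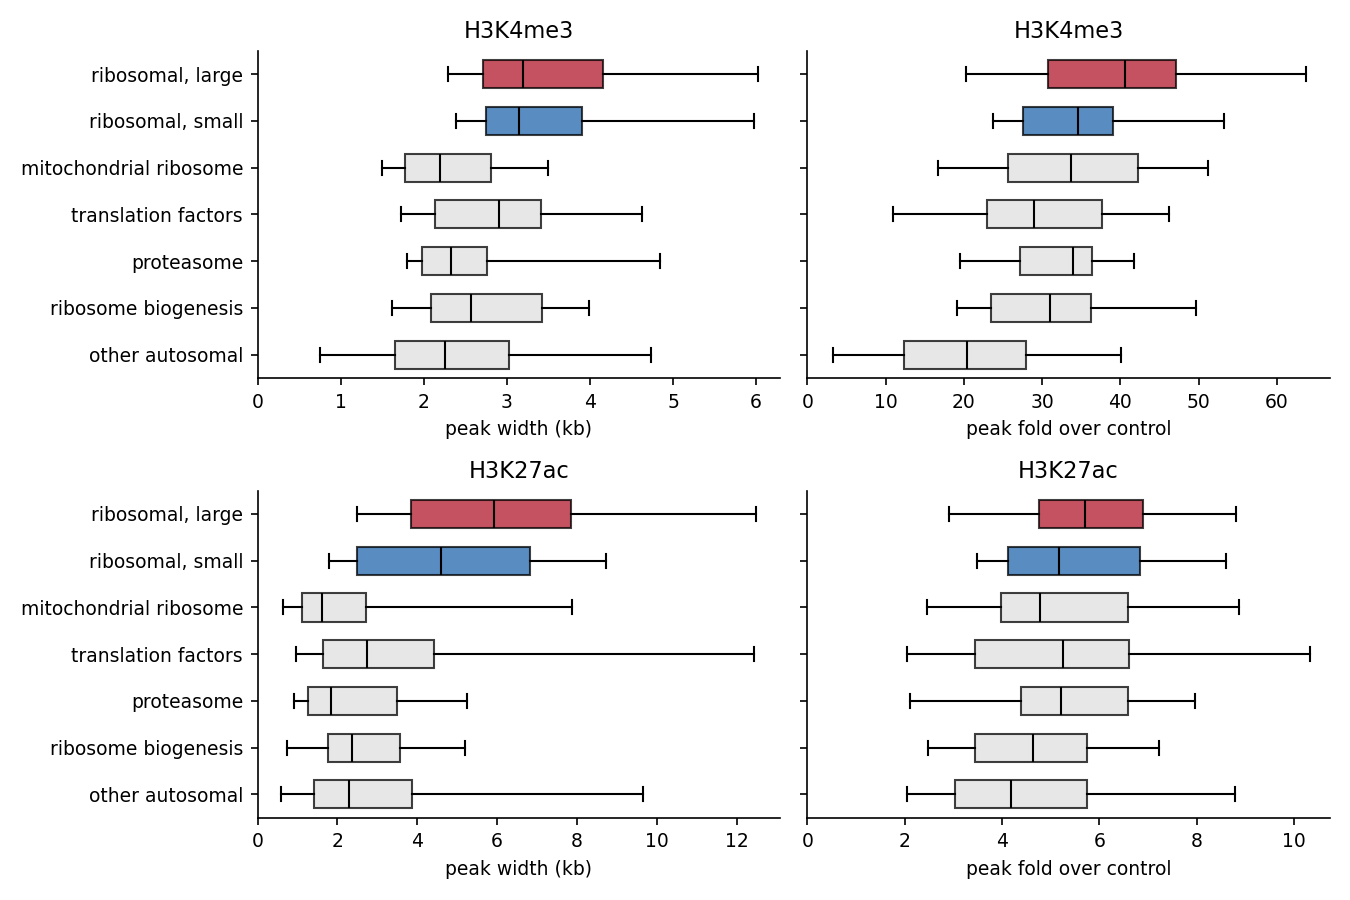
Peak width in kb (left) and fold over control (right) of H3K4me3 (top) and H3K27ac (bottom) for 7 gene lists. Boxes show the quartiles with the median as a line, and whiskers run from the 5th to the 95th percentile of genes. The ribosomal lists have the widest H3K27ac boxes, with medians of 5912 bp for the large and 4600 bp for the small subunit.

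Width and fold of the widest peak at the gene ends were not tied together among these genes. Over the 74 genes, H3K4me3 width and fold had a Spearman rho of -0.19 and a Pearson r of -0.0601, against 0.442 and 0.621 over 11840 autosomal genes. H3K27ac width and fold had a rho of -0.126, against 0.453. At 8 of the 54 genes with an H3K27ac peak and a listed start, the widest peak was not one that held the start. For H3K4me3 this was so at 2 of 54. The values therefore mix peaks at the start with peaks elsewhere at the gene ends. H3K4me3 and H3K27ac widths rose together, with a rho of 0.474 beside 0.567 over all genes, and gene length had a rho of 0.0744 with H3K4me3 width. These are correlations across genes of the same peak lists, given as descriptions.

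The widest H3K4me3 peak, 8106 bp with a fold of 35.8, was at Rpl13a. Rpl13a codes for a protein that also represses translation of inflammatory messages. Next came Rpl35 with 7033 bp, Rps2 with 6423 bp, Rpl7 with 6214 bp and Rpl18 with 6022 bp. The peak of Rpl35 also held an end of Arpc5l, that of Rpl7 an end of Rdh10 and that of Rpl18 an end of Sphk2.

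Narrow H3K4me3 peaks could be steep. Rpl27 had 1937 bp with a fold of 63.7, and Rps15 2256 bp with 53.2. Rps27l, a paralog of Rps27 that is induced by p53, had 2175 bp with a fold of 29.9. The other narrow values, 1706 bp at Rpl19 and 2187 bp at Rpl3l, came from peaks away from the start, as follows.

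At Rpl19 (chr11:98022003-98030493) the widest peak at the gene ends lay between -5.12 and -3.41 kb from the listed start, upstream of it, with a fold of 10.2, and also held an end of Cacnb1. The peak that held the Rpl19 start had 2854 bp and a fold of 39.7, near the median of the group. At Rpl3l (chr17:24727826-24736143), the form of Rpl3 found in heart and skeletal muscle, the H3K4me3 and H3K27ac peaks lay about 8 kb after the start and also held an end of the next gene, Msrb1. The Rpl3l start itself was outside both marks.

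For H3K27ac the widest peaks were at Rpl7 with 13748 bp, Rpl19 with 12769 bp, Rpl27 with 12564 bp, Rpl35 with 12490 bp and Rps10 with 10963 bp. At Rpl27 this peak began 4.2 kb after the start, beyond the 3352 bp gene. The narrowest were at Rps24 with 1409 bp, Rpl11 with 1544 bp, Rps23 with 1742 bp, Rps14 with 1784 bp and Rps26 with 1861 bp. The peaks taken at Rps24 and Rpl11 lay at the far end of the gene, both with a fold of 2.07. At the Rpl11 start itself there was a peak of 1460 bp with a fold of 10.9. Rps23, a protein of the decoding centre, Rps14 and Rps26 combined narrow peaks with folds of 8.21, 8.12 and 9.57, all above the median of the group.

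The start gave a sharper reading than the gene ends. Of the 57 genes with a listed start, 53 (93.0%) had it inside an H3K4me3 peak, against 54.9% of all genes with a start. The 4 others were Rpl32l, Rpl10l, Rpl39l and Rpl3l. H3K27ac held the start at 50 (87.7%), against 47.3%, and the further exceptions were Rpl31, Rpl27 and Rps24, which had H3K27ac within 1 kb of the start. H3K27me3 held 0 of the 57 starts, against 20.3%. In the mitochondrial ribosomal protein, translation factor and proteasome lists, H3K4me3 held 93.8% to 100% of starts and H3K27ac 91.3% to 93.8%.

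Both active marks reached farther into the gene than before it. H3K4me3 peaks that held the start reached a median of 905 bp upstream and 2354 bp downstream. In the 2528 other genes no longer than the longest ribosomal protein gene (11774 bp) with a marked start, the medians were 751 and 1347 bp, and in 69 mitochondrial ribosomal protein genes 768 and 1225 bp. The downstream reach was the longer one in 51 of 53 genes (96.2%), all but Rpl35 and Rpl18, against 78.6% of those short genes, 66.7% of mitochondrial ribosomal protein genes, 86.7% of proteasome genes and 89.8% of translation factor genes. At Rpl18 this rests on the listed start, which lay 2.6 kb inside the gene. The quartiles of the downstream reach, 2013 and 2920 bp, did not overlap those of the short genes, 1054 and 1856 bp, but overlapped those of translation factors, 1499 and 2283 bp, with a median of 1830 bp. Proteasome genes had a median of 1619 bp.

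H3K27ac showed the same asymmetry with a longer reach. Its medians were 939 bp upstream and 3780 bp downstream, against 1016 and 1268 bp in short genes and 756 and 812 bp in mitochondrial ribosomal protein genes. Downstream medians were 1365 bp in translation factors and 870 bp in proteasome genes. It ran past the far end of the gene in 29 of 50 (58.0%), against 15.0% of short genes. H3K27ac peaks covered 100% of the gene at the median of the 74 genes with a peak, against 26.9% in short genes, and covered the whole gene in 39 (52.7%), against 11.7%. H3K4me3 covered 77.2% at the median, against 24.5%, and the whole gene in 17 (23.0%), against 6.87%. Ribosomal protein genes had a median length of 3183 bp, below the 4334 bp of the short genes.

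**Figure D3:**
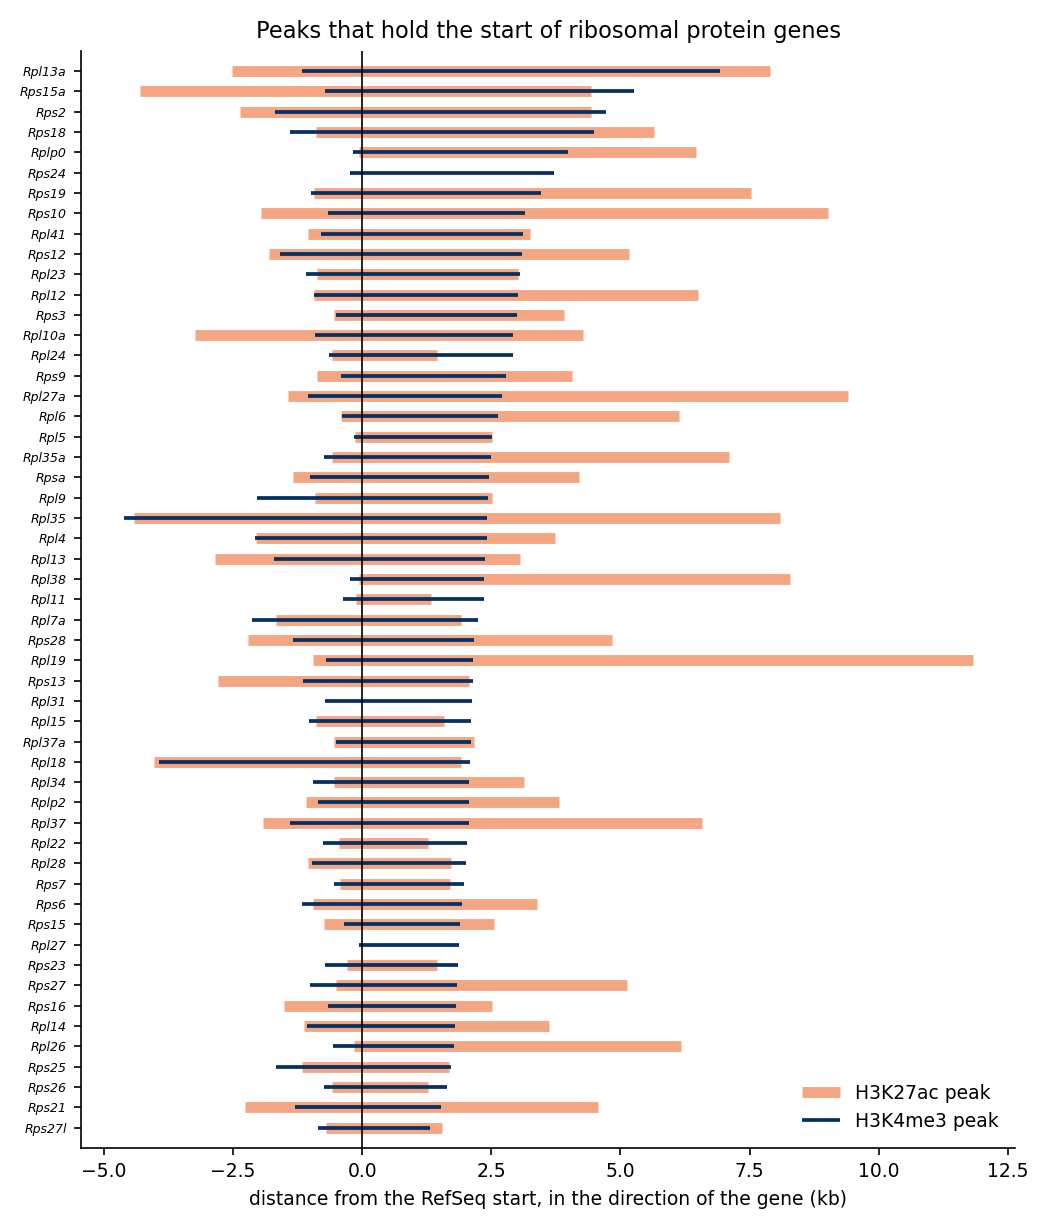
Extent in kb of the H3K4me3 peak (dark line) and the H3K27ac peak (orange bar) that held the start, in the direction of transcription from the RefSeq start at 0, for the 53 genes with H3K4me3 there. Genes are sorted by the downstream reach of H3K4me3, and Rps24, Rpl31 and Rpl27 have no orange bar because their start lay outside H3K27ac. Most bars extend farther to the right of 0 than to the left.

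**Figure D4:**
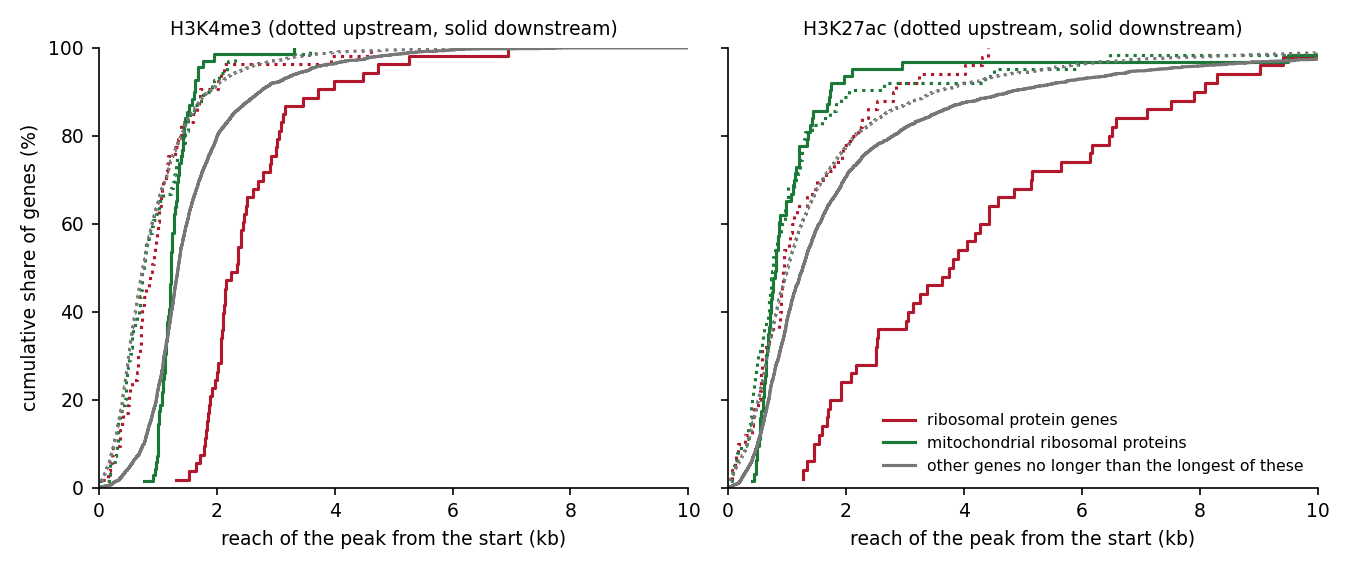
Cumulative share of genes against the reach of the peak from the start in kb, upstream (dotted) and downstream (solid), for ribosomal protein genes (red), mitochondrial ribosomal protein genes (green) and other genes no longer than the longest ribosomal protein gene (grey). The dotted lines of H3K4me3 lie close together, with medians of 905, 768 and 751 bp, while the solid red line is shifted to the right, with a median of 2354 bp.

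Peaks that also held an end of another gene were wider. The widest H3K4me3 peak also held an end of another protein-coding gene at 25 of 74 genes (33.8%), against 25.4% of all genes with a peak, and these peaks had a median width of 3914 bp against 2961 bp for the 49 others. For H3K27ac it did so at 35 (47.3%), against 30%, with medians of 6842 and 4321 bp. Over all genes the medians were 2780 bp for shared and 2068 bp for other H3K4me3 peaks, and 3012 and 1998 bp for H3K27ac. A wider peak is also more likely to reach another gene, so the part of neighbours in the width cannot be told from these values. It was not tested.

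Small nucleolar RNAs, which guide the modification of ribosomal RNA, are often encoded in introns of these genes. RefSeq placed 56 of them inside 27 of the 77 genes (35.1%), against 1.72% of all autosomal genes with at least 1. Host genes had a median H3K4me3 width of 3808 bp against 2911 bp in the other ribosomal protein genes, and an H3K27ac width of 5918 bp against 4323 bp. Their H3K4me3 folds were closer, 37.9 and 36.8.

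Examples by role began with the small subunit. Rps6, the protein phosphorylated by S6 kinase, had an H3K4me3 peak of 3091 bp with a fold of 39.0 and an H3K27ac peak of 4323 bp with 5.06. Rps3, at the entry of the messenger channel and also a DNA repair factor, had 3506 bp with 41.1 and 4447 bp with 4.66. Rpsa, which is also a laminin receptor, had 3483 bp with 27 and 5538 bp with 4.73. The H3K27ac folds of these 3 genes were all below the group median of 5.57.

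Rps27a is made as a fusion to ubiquitin and had 2953 bp of H3K4me3 with a fold of 40.1 and 2432 bp of H3K27ac with 8.6. Rps14, whose loss underlies the anaemia of the 5q deletion, had 2864 bp with 33.2 and 1784 bp with 8.12. Rps19, the gene most often mutated in Diamond-Blackfan anaemia, had 4452 bp with 23.9 and 8448 bp with 4.6. Rps27a and Rps14 thus had H3K27ac that was narrow and steep, and Rps19 had H3K27ac that was wide and shallow.

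In the large subunit, Rpl3, a protein next to the peptidyl transferase centre, had 5086 bp of H3K4me3 with a fold of 30.1 and 10852 bp of H3K27ac with 5.78. Rpl23, which also binds Mdm2, had 4149 bp with 51.9 and 3885 bp with 7.42. Rpl10a had 3826 bp with 47.0 and 7503 bp with 9.74. Rpl23 and Rpl10a were above the group medians in fold for both marks.

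The 3 proteins of the stalk that recruits elongation factors had H3K4me3 folds below the group median of 37.8. Rplp0 had 4175 bp of H3K4me3 with a fold of 25, Rplp1 2911 bp with 29.8 and Rplp2 2938 bp with 32.1. Their H3K27ac peaks had 6525, 4321 and 4906 bp with folds of 4.4, 4.76 and 5.63.

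H3K27me3 at the 4 genes that carried it lay outside the start. At Rpl38 (chr11:114667818-114672333), a protein needed for the translation of a subset of Hox messages, a 5335 bp peak with a fold of 2.57 ended upstream of the start, at -1.02 kb. At Rpl5 (chr5:107900508-107909005) a 5103 bp peak with 2.05 ended at -0.82 kb. At Rpl26 (chr11:68901566-68904534) a 1898 bp peak with 1.89 ended at -0.941 kb. At Rpl3l there were 2 peaks within 1 kb of the start. The wider one, 2311 bp with 1.87, ran from 0.885 to 3.19 kb after the start, inside the gene. The position of the other is not given here. At Rpl38, Rpl5 and Rpl26 the H3K4me3 peak began at -0.242, -0.162 and -0.566 kb, so the marks lay side by side. With only peaks of a −log10 q of 5 or more, 1 of these 4 genes remained, and the share over all genes at this setting is not given here.

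No HEB site lay within 10 kb of an end of any of the 77 genes (0.0%), against 1.95% of all autosomal genes and 2.94% of those with both active marks. Against a background this low, a count of 0 among 77 genes is near the background and is not a result about these genes. Within 25 kb there were 3 genes (3.9%, against 4.05%) and within 100 kb 8 genes (10.4%, against 12.5%). The median distance to the nearest site was 704 kb, beside 762 kb over all genes. Rpl27a lay 14.1 kb from a site that was 12.6 kb from Denn2b. A further site lay 57.2 kb from Rpl11 and 32.8 kb from Id3, which codes for an inhibitor of E proteins.

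**Figure D5:**
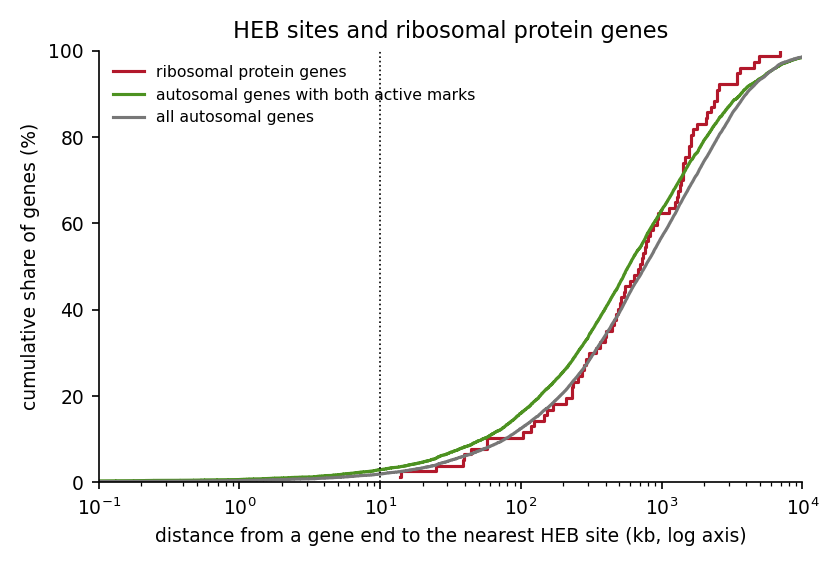
Cumulative share of genes against the distance in kb, on a log axis, from the nearer gene end to the nearest HEB site, with distances under 0.1 kb drawn at 0.1 kb. Ribosomal protein genes are red, autosomal genes with both active marks green and all autosomal genes grey, and the dotted line is at 10 kb. The red line starts to the right of the dotted line and then runs along the grey line, with medians of 704 and 762 kb.

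Fau and Rps3a1, outside the naming rule, carried both active marks, while Rpl37rt and Rps27rt had no mark. Fau had H3K4me3 of 2729 bp with a fold of 49.2 and Rps3a1 3283 bp with 36.0. The 4 genes on X all had both active marks, with H3K4me3 folds of 14.8 at Rpl10, 17.2 at Rps4x, 17.6 at Rpl36a and 21.7 at Rpl39, all below the lower quartile of 29.5 of the autosomal group. H3K27me3 was also present at Rpl10 and Rps4x, with the widest peak downstream of the start.

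Processed pseudogenes of ribosomal proteins are numerous, with the handling of reads that match several copies not given in the sources used here. Of 281 autosomal pseudogenes named as such, 4 (1.42%) had H3K4me3 within 1 kb of an end, 34 (12.1%) H3K27ac and 60 (21.4%) H3K27me3. Of the 200 that lay away from protein-coding genes, 2 had H3K4me3, with folds of at most 2.56. The highest H3K4me3 fold at any of the 281 was 28.5, below the lower quartile of 29.5 of the ribosomal protein genes. For H3K27ac the highest fold was 12.7, at a pseudogene away from coding genes, above the highest of 11.7 at a ribosomal protein gene, and 21 of the 200 had a peak.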

How the data were processed

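The lists cover 20 samples, 4 each for HEB, H3K4me3, H3K27ac, H3K27me3 and input. They are in mm10 per the submitters' processing notes, which name SAMtools, with aligner, caller settings and pooling of replicates not given in the sources used here. Per peak, the deposited histone lists give each peak's fold over control, a ratio made by the authors, and the authors' −log10 q-value. The deposited HEB list holds positions only, as a consensus with a minimum overlap of 2 per its name.

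Genes, starts and promoters came from RefSeq GRCm38.p6. The widest peak that overlapped by 1 bp or more the windows of 1 kb around both gene ends was taken for each gene, with its fold. Motifs were read as exact letters. Named genes were the 5 widest and 5 narrowest for each active mark, those without an active mark, with H3K27me3 or near HEB, the paralogs and examples of roles. Rpl9, Rpl31, Rpl36, Rpl23a, the genes nearest to HEB sites and the genes whose promoters are printed were added after values were seen. Rps4l, a listed paralog, was not analysed here, and single results of some genes are not reported here. The members and lists were chosen with earlier results of these data known. Python 3.11.15 with pandas 2.3.3 and numpy 2.4.6 was used, and the overlap code was tested on simulated intervals. Alternatives changed the window, the peak threshold, the peak taken, the HEB distance and the members.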

Additional observations from a re-analysis of the deposited data

How the results depend on the processing

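Of 90 recomputed values, 80 stayed within 1.5 times the count or within the 95% order-statistic interval of the median (2911 to 3506 bp for H3K4me3 width and 4447 to 6331 bp for H3K27ac width), and 10 moved. Some of the 80 could not move. The HEB count of 0 must stay 0 at shorter distances, with fewer genes or with only the sites in H3K27ac. The count of 4 genes with H3K27me3 became 2 with windows of 500 bp and 9 with 2500 bp. It became 0 when the peak had to cover a gene end and 1 with a −log10 q of 5 or more. When the peak had to hold the RefSeq start, an alternative chosen after seeing the data, it was 0 of 57 genes, against 20.3% of all genes with a start. Shares over all genes under the other settings are not given here, so those counts do not show whether the difference from all genes changed. Counting base pairs of the windows covered in place of peak width gave medians of 2060 bp for H3K4me3 and 3062 bp for H3K27ac, since the windows cap the value. The count of 0 genes with HEB within 10 kb became 3 within 25 kb, 8 within 100 kb and 1 when 7 further ribosomal protein genes were added. No paired analysis was possible because each antibody has 1 peak list with no value per replicate, and for the same reason no replicate could be left out. The intervals describe the spread over genes, not over samples, and unknown read depth limits how weak peaks can be read.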
